A study of Mus musculus with 2 samples.

Results

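The genes described here are 8 members of the TGF-β and IL-10 signalling pathways, read in the CD45+ cells of mouse tumors. They were chosen by symbol from 32285 measured genes, with earlier results of these data known. They comprised the ligand Tgfb1, its receptor chains Tgfbr1 and Tgfbr2, the pathway modulators Smad7 and Skil, the ligand Il10 and its receptor chains Il10ra and Il10rb. Each symbol matched a single row of the files, and all 8 are protein coding genes of the GRCm38 (mm10) build.

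MC38 colon cancer cells were grown on both flanks of C57BL/6 mice. In both groups the right tumor was destroyed by microwave ablation (MWA) once its volume had reached about 300 mm3. Mice of the MWA plus TIGIT group also received an antibody against TIGIT, a coinhibitory receptor of T and NK cells, by 3 intraperitoneal injections given every 3 days from day 1 after MWA as the labels have it, while the study's methods give another number of injections. The study's text describes an isotype control antibody for the MWA group. On day 8 the left tumor, which had not been ablated, was taken from each group, and CD45+ cells were sorted and sequenced as 1 library per group. The number of mice behind a library was not given in the sources used here, and untreated tumors and tumors given the antibody alone were not analysed here. With 1 library per group no difference between the groups could be tested. All intervals below are 95% intervals that cover counting error only.

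TGF-β is secreted as a latent complex that integrins and surface proteins release, and it signals through a receptor made of a type I chain (TGFBR1) and a type II chain (TGFBR2). The receptor phosphorylates SMAD2 and SMAD3, which enter the nucleus with SMAD4. SMAD7 and SnoN, the product of Skil, restrain this signal, and both are themselves induced by it. IL-10 binds a ligand-specific chain (IL10RA) and a chain shared with related cytokines (IL10RB), and it signals through JAK1, TYK2 and STAT3. Both cytokines are known to restrain effector T cells and antigen presentation in tumors, and regulatory T cells (Tregs) and tumor-associated macrophages (TAMs) are known sources of them.

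The MWA library held 10217 barcodes with a median of 5627 unique molecular identifiers (UMIs, each counting 1 captured transcript), and the MWA plus TIGIT library held 10190 barcodes with a median of 6586 UMIs. After removal of 806 and 786 predicted doublets and of barcodes of low quality, 9231 and 9127 cells remained. The libraries shared 37 barcodes, of which 28 were kept. Cells were clustered without the genes of the pathway lists read below, which hold the members. They were named from markers as 11 types, each called "-like" because the names were rebuilt from the deposited counts. Treg markers, Foxp3 among them, were not left out of the clustering, and Treg-like cells were named from them. Levels of these markers in Treg-like cells are therefore not independent of the cell types. In the order MWA and MWA plus TIGIT, there were 3437 and 3619 TAM-like cells, 1763 and 1864 CD8 T-like cells, 931 and 784 CD4 conventional T-like cells, 909 and 989 monocyte-like cells and 728 and 597 Treg-like cells. The other named types held 88 to 173 cells in each library, apart from B-like cells, which numbered 82 and 11. With predicted doublets kept, B-like cells numbered 82 and 63. Another 671 and 650 cells were left unnamed. CD45 itself, encoded by Ptprc, was seen in 84.4% and 88.3% of kept cells, and the 5 tumor epithelial markers summed to 2.30 and 2.02 CPM over all kept cells, the 5 fibroblast markers to 2.67 and 4.46 CPM.

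The receptor chains Tgfbr1 and Tgfbr2 differed in where they were found, so the sequences before their starts are shown. RefSeq windows on GRCm38.p6 were present for 3 of the 8 members. The 250 bases upstream of Tgfbr1 were read from chr4:47352972-47353221 on the plus strand, and those of Tgfbr2 from chr9:116175364-116175613 on the minus strand. Capitals mark GGGCGG on either strand, the core letters of a GC box.
Tgfbr1: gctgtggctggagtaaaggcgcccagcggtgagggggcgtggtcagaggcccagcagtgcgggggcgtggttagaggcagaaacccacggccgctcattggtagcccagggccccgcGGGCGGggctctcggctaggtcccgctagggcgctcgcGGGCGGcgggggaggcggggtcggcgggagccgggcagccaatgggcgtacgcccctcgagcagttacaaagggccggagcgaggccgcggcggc
Tgfbr2: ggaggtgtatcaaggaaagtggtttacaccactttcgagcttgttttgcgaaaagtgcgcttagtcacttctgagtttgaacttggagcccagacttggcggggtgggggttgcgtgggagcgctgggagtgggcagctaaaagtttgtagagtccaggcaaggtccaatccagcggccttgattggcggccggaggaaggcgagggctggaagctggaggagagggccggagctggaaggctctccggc
The Tgfbr1 window held 2 GGGCGG matches and 29 CpG dinucleotides at 74.8% G and C, and the Tgfbr2 window held 0 GGGCGG matches and 12 CpG dinucleotides at 58.4%. RefSeq lists a second Tgfbr1 start, whose window at chr4:47385966-47386215 is not shown and held 0 GGGCGG matches, 0 CCAAT matches and 3 CpG dinucleotides at 52.8%, so how the genes compare depends on the start chosen. Each window shown held 2 CCAAT matches, counted on both strands, and these do not overlap GGGCGG. The window of Tgfb1 held 5 GGGCGG matches at 75.2% G and C. Over all 32851 windows of this length, 32.7% held GGGCGG, 33.85% held CCAAT and the median G and C content was 52.4%.

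Il10 was found mainly in Treg-like cells. Its level, in counts scaled to the UMI total of the cell type (CPM), was 169 CPM (interval 151 to 188) in Treg-like cells of the MWA library and 201 CPM (181 to 223) in those of the MWA plus TIGIT library. The next types with more than 2 UMIs were interferon-induced T-like cells, at 19.4 and 32.5 CPM from 11 and 22 UMIs. These UMIs lay in 7 and 6 cells, with up to 3 and 9 in a single cell. Of these cells, 6 and 1 also had a Foxp3 UMI. TAM-like cells stood at 2.99 and 2.77 CPM, CD4 conventional T-like cells at 2.21 and 4.16 CPM, CD8 T-like cells at 1.34 and 1.94 CPM and monocyte-like cells at 0.356 and 0.985 CPM, and the intervals of these types overlapped those of their neighbours in the order. In the MWA library gamma-delta T-like, NK-like and B-like cells had 0 Il10 UMIs, which allows up to 3 UMIs in each. DC-like cells had 9 and 2 Il10 UMIs, and 8 of the 9 lay in a single cell.

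Treg-like cells were 7.89% and 6.54% of the cells and gave 3.33% and 2.76% of all UMIs, yet they held 69.4% (65.0 to 73.6%) of the 458 Il10 UMIs of the MWA library and 66.7% (62.7 to 70.6%) of the 565 of the MWA plus TIGIT library. TAM-like cells, at a far lower level, held 20.5% (16.9 to 24.5%) and 19.8% (16.6 to 23.4%). The Treg share was 87.3% and 88.1% when cells above 5000 UMIs were left out, and 43.0% and 44.8% when cells were assigned by marker gates. An Il10 UMI was seen in 146 of 728 Treg-like cells (20.1%) and in 153 of 597 (25.6%). After thinning each cell to 1000 UMIs these shares were 12.3% (9.96 to 14.9%) and 14.5% (11.7 to 17.6%), with 20 and 10 shallower cells left out, and the intervals overlapped. CD8 T-like cells served as a type that should largely lack the gene. Before thinning 0.340% and 0.483% of them had an Il10 UMI, and after it 0.172% and 0.217%. Their cells were the deeper ones, with medians of 4469 and 4122.5 UMIs where Treg-like cells had 2216 and 2766. The transcript was unevenly spread within the Treg-like cells. A single cell held up to 12 and 10 UMIs, and the top 10% of cells held 77.0% and 67.9% of the Treg Il10 UMIs. Uneven spread was also seen in TAM-like cells, whose 94 and 112 Il10 UMIs lay in 61 and 45 cells. A single TAM-like cell held up to 12 and 13 of them, so the intervals of both shares are too narrow.

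RNA of other cells was read beside these values. Per 100 UMIs of Foxp3, the factor that defines Tregs, Treg-like cells had 37.2 and 38.0 Il10 UMIs, and interferon-induced T-like cells had 42.3 and 40. TAM-like cells had 783 and 509, since they held only 12 and 22 Foxp3 UMIs. The 6 Treg markers summed to 7.71 and 6.35 CPM in TAM-like cells, where Ikzf4 was at 0 in the MWA plus TIGIT library, against 4302 and 4781 CPM in Treg-like cells. Of 61 and 45 TAM-like cells with an Il10 UMI, 1 in each library also had a Foxp3 UMI.

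**Figure D1:**
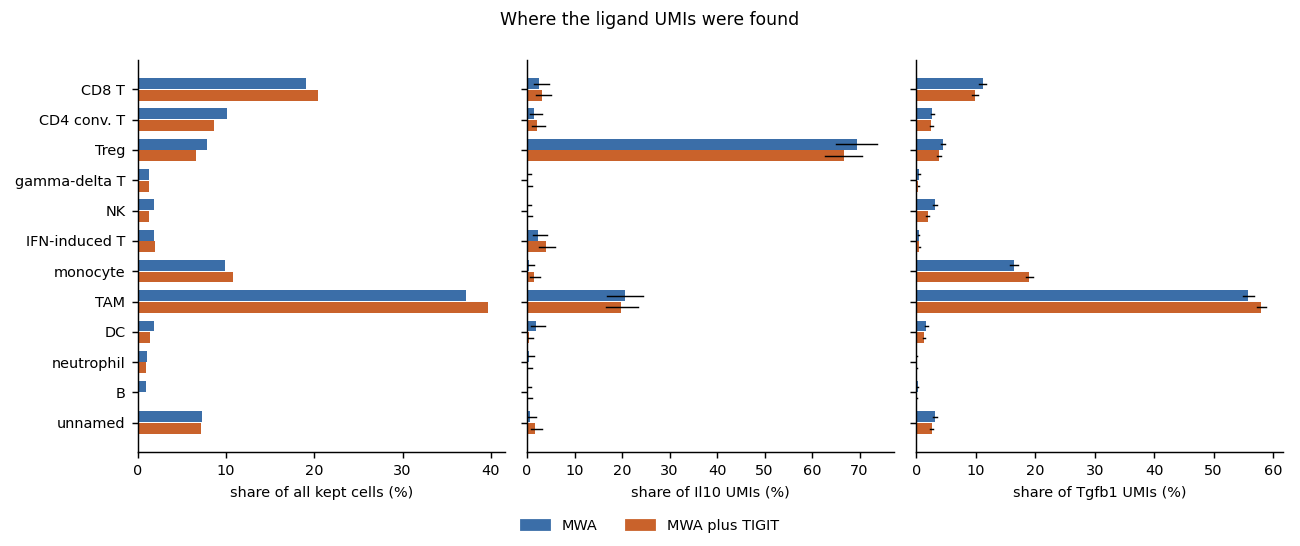
Share of all kept cells, of Il10 UMIs and of Tgfb1 UMIs (each in %) by cell type and library, with black lines for exact binomial 95% intervals. Treg-like cells held 69.4% and 66.7% of the Il10 UMIs, and TAM-like cells held 55.8% and 58.0% of the Tgfb1 UMIs with no upper limit on UMIs per cell.

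Within Treg-like cells, those with an Il10 UMI were set beside those without one, over the pathway genes and Treg markers. Cells are not replicates, so this is a description of 2 libraries. Maf, a transcription factor known to drive Il10, stood at 1336 against 709 CPM in the MWA library (log2 ratio 0.91) and at 1476 against 986 CPM in the MWA plus TIGIT library (0.58). Itgb8, the integrin chain with which Tregs release active TGF-β, stood at 158 against 84.5 CPM (0.90) and 134 against 74.6 CPM (0.85). The coinhibitory receptor gene Ctla4 had log2 ratios of 0.72 and 0.56, Izumo1r, which encodes folate receptor 4, had 0.42 and 0.49, and Il2ra, the high-affinity IL-2 receptor chain, had 0.30 and 0.18. Of 78 genes read, these 5 had intervals above 0 in both libraries. The Treg markers Foxp3 (0.01 and -0.07), Ikzf2 (0.02 and -0.15) and Ikzf4 (0.21 and -0.36) were not among them. For Ikzf2 the interval in the MWA plus TIGIT library lay below 0 (-0.28 to -0.02). The same count over all genes was not made, so whether these 5 stand out from other genes was not tested. Tgif1, a SMAD corepressor, also had intervals off 0 in both but with opposite signs, at -0.70 and 0.71. Cells with an Il10 UMI were deeper, with a median of 2365.5 against 2191 UMIs in the MWA library and 2781 against 2750.5 in the other, and the part of depth in these ratios was not tested.

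Tgfb1 was read in every type, and its highest level was in NK-like cells. It stood at 487 CPM (441 to 537) in NK-like cells of the MWA library and 472 CPM (419 to 529) in those of the MWA plus TIGIT library. Monocyte-like cells followed at 372 and 357 CPM, then Treg-like cells at 306 and 311 CPM and TAM-like cells at 227 and 219 CPM, and in each library these 4 levels had intervals that did not overlap. When cells were assigned by marker gates, monocyte-like cells had the highest Tgfb1 in both libraries. DC-like cells stood at 183 and 179.9 CPM and CD8 T-like cells at 159 and 163 CPM, with overlapping intervals. The lowest levels among the larger types were in CD4 conventional T-like cells, at 110.3 and 135 CPM. Smaller types were less precise, with 34 UMIs or fewer in B-like and 11 or fewer in neutrophil-like cells.

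Subsets of these types were spread widely in Tgfb1. Monocyte-like cells low in complement C1q stood at 628 and 643 CPM, against 346 and 333 CPM in those high in C1q. Among CD8 T-like cells, exhausted-like cells had the highest Tgfb1, at 238 and 303 CPM. Cycling-like cells had 176 and 183 CPM, effector-like cells 116 and 109.6 CPM, and stem-like cells 70.1 and 60.6 CPM. Within TAM-like cells the Mmp12 Bnip3 subset was lowest, at 153 and 126 CPM, and the other subsets lay between 225 and 259 CPM. TAM-like cells held 55.8% and 58.0% of Tgfb1 UMIs, next to 55.5% and 59.7% of all UMIs. These shares were 11.5% and 6.905% when cells above 5000 UMIs were left out. Monocyte-like cells held 16.4% and 19.0% of Tgfb1 with 9.94% and 11.985% of all UMIs, and NK-like cells held 3.21% and 1.91% with 1.49% and 0.913%.

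**Figure D2:**
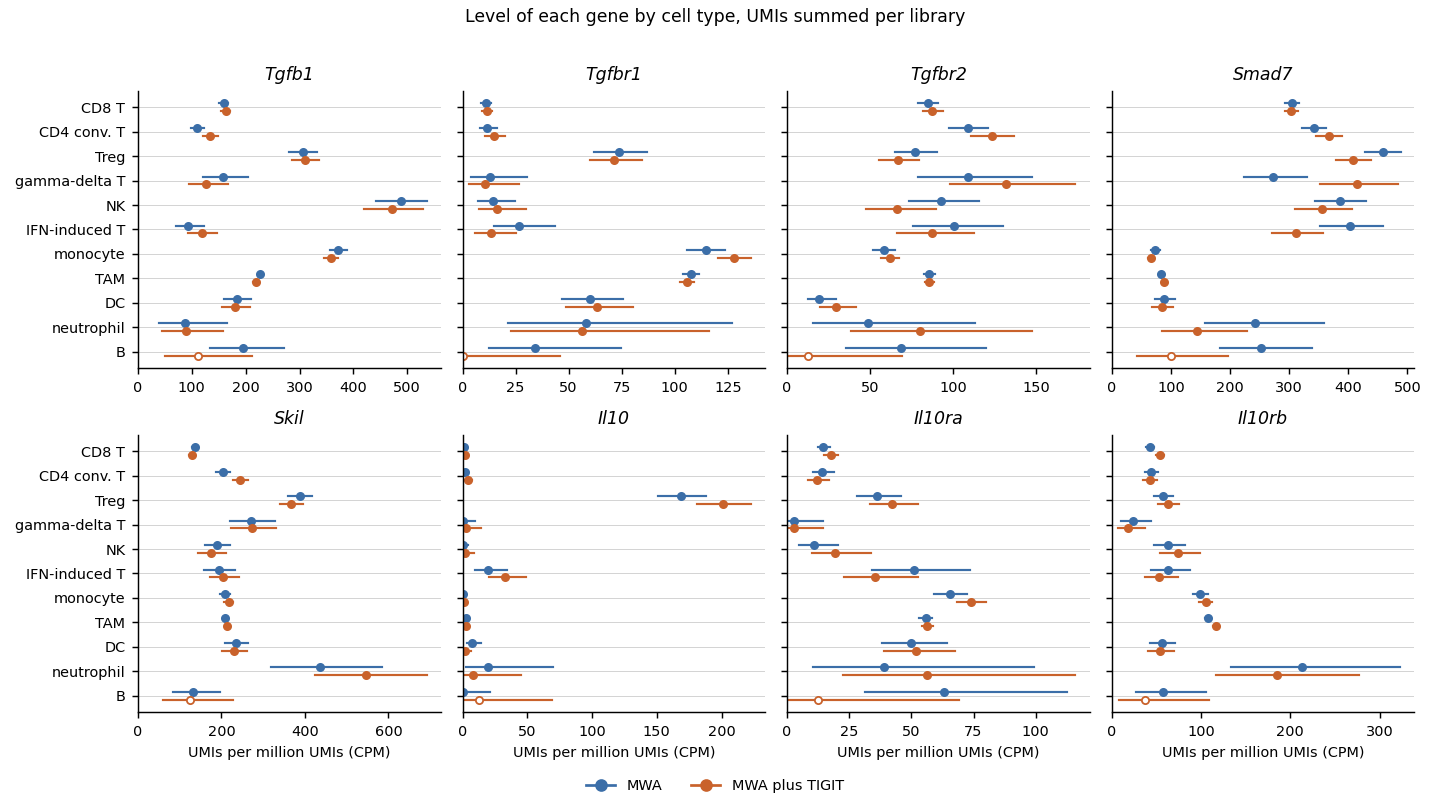
Level of each of the 8 genes in CPM (linear axis from 0) by cell type in the 2 libraries, with exact Poisson 95% intervals; hollow points are types of fewer than 20 cells. Il10 stood at 169 and 201 CPM in Treg-like cells and at 32.5 CPM or less in every other type, whereas Skil stood between 124 and 547 CPM in all of them.

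The type I chain Tgfbr1 was found in myeloid and Treg-like cells and was low in the other lymphocytes. It stood at 114 and 128 CPM in monocyte-like cells, 108 and 106 CPM in TAM-like cells, 73.7 and 71.5 CPM in Treg-like cells and 60.02 and 63.1 CPM in DC-like cells. In CD8 T-like cells it stood at 10.8 (8.78 to 13.2) and 11.3 CPM (9.23 to 13.7), in CD4 conventional T-like cells at 11.7 and 14.9 CPM, in NK-like cells at 14.3 and 16.2 CPM and in gamma-delta T-like cells at 13.0 and 10.4 CPM. The intervals of Treg-like cells (62.0 to 87.1 and 59.9 to 84.7 CPM) lay above those of CD8 T-like and CD4 conventional T-like cells in both libraries. Macrophage RNA was also read in these T cells, and its part in their Tgfbr1 was not tested. The 8 macrophage markers summed to 1018 and 882 CPM in Treg-like cells and to 632 and 684 CPM in CD8 T-like cells, against 30033 and 35156 CPM in TAM-like cells.

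The type II chain Tgfbr2 had a flatter pattern. Its levels were highest in gamma-delta T-like cells, at 109 and 132 CPM, and in CD4 conventional T-like cells, at 109 and 124 CPM. TAM-like cells stood at 85.6 and 85.7 CPM, CD8 T-like cells at 84.9 and 87.6 CPM, Treg-like cells at 76.9 and 66.7 CPM and monocyte-like cells at 58.1 and 62.0 CPM. DC-like cells were lowest among the types with over 20 UMIs, at 19.4 and 29.2 CPM. Most neighbours in this order overlapped in their intervals.

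The balance of the chains was lower in CD8, CD4 conventional, gamma-delta and interferon-induced T-like cells and in NK-like cells than in Treg-like and myeloid cells. There were 0.128 (0.102 to 0.158) and 0.129 (0.104 to 0.158) Tgfbr1 UMIs per Tgfbr2 UMI in CD8 T-like cells and 0.107 and 0.121 in CD4 conventional T-like cells. Gamma-delta T-like cells had 0.119 and 0.0784, NK-like cells 0.154 and 0.244 and interferon-induced T-like cells 0.263 and 0.153, each from 15 Tgfbr1 UMIs or fewer. Treg-like cells had 0.959 (0.754 to 1.22) and 1.07 (0.834 to 1.38), TAM-like cells 1.26 and 1.23, monocyte-like cells 1.97 and 2.06, and DC-like cells 3.09 and 2.16. Capture of each transcript is shared by the types, so these ratios are compared between types and not read as protein balances. In CD8 T-like subsets the ratio stayed between 0.0547 in effector-like cells of the MWA library and 0.167 in cycling-like cells of the MWA plus TIGIT library. Among TAM-like subsets, Selenop Mrc1 cells had the highest levels of both chains, with 134 CPM of Tgfbr1 in each library and 115 and 120.4 CPM of Tgfbr2. Mmp12 Bnip3 cells had the lowest levels of both, with 64.2 and 54.2 CPM of Tgfbr1 and 43.0 and 40.8 CPM of Tgfbr2.

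The ligand-specific IL-10 chain Il10ra was higher in monocyte-like, TAM-like and DC-like cells than in CD8 T-like and CD4 conventional T-like cells. It stood at 65.4 and 74.0 CPM in monocyte-like cells, 55.7 and 56.4 CPM in TAM-like cells, 49.9 and 51.8 CPM in DC-like cells and 36.1 and 42.2 CPM in Treg-like cells. Interferon-induced T-like cells stood at 51.1 and 35.5 CPM, and CD8 T-like and CD4 conventional T-like cells at 12.1 to 17.5 CPM. B-like cells had 62.9 CPM in the MWA library and 12.4 CPM in the other, from 11 UMIs and 1 UMI. The highest subset levels were 104 and 103 CPM in interferon-induced TAM-like cells and 109 and 89.6 CPM in C1q-low monocyte-like cells. Gamma-delta T-like cells had a single Il10ra UMI in each library.

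The shared chain Il10rb was more widely spread. TAM-like cells had 108 and 117 CPM and monocyte-like cells 98.8 and 105 CPM. NK-like cells had 63.0 and 74.3 CPM, Treg-like cells 57.3 and 63.0 CPM, CD4 conventional T-like cells 44.1 and 42.3 CPM and gamma-delta T-like cells 23.4 and 18.1 CPM. The higher 214 and 185 CPM of neutrophil-like cells rested on 22 and 23 UMIs. Effector-like CD8 T cells had 65.5 and 81.1 CPM of Il10rb against 35.2 and 33.9 CPM in exhausted-like cells. Per Il10rb UMI there were 0.342 and 0.324 Il10ra UMIs in CD8 T-like cells, 0.630 and 0.669 in Treg-like cells, 0.517 and 0.484 in TAM-like cells and 0.894 and 0.965 in DC-like cells. After thinning to 1000 UMIs, both TGF-β chains were seen in 33 of 3427 and 25 of 3615 TAM-like cells, and both IL-10 chains in 24 and 19 of them. For TGF-β these were 0.963% and 0.692% of the cells, where 0.754% and 0.718% would be seen if the chains were detected independently. For IL-10 they were 0.700% and 0.526%, next to 0.570% and 0.532%. After thinning to 2000 UMIs the counts of TAM-like cells with both chains were 99 of 3378 and 106 of 3592 for TGF-β and 93 and 78 for IL-10.

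**Figure D3:**
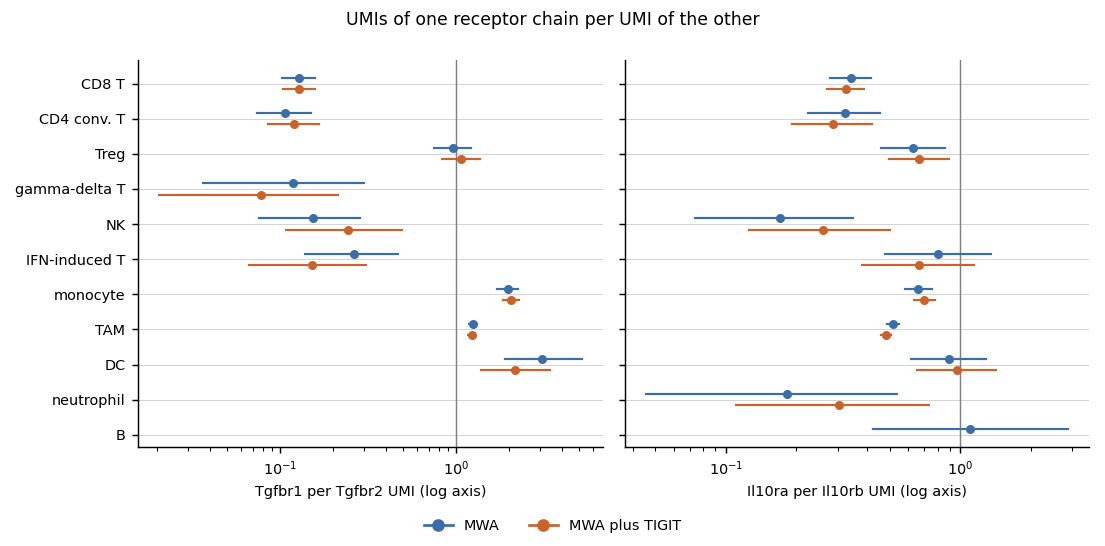
UMIs of Tgfbr1 per UMI of Tgfbr2 (left) and of Il10ra per UMI of Il10rb (right) on log axes by cell type and library, with exact 95% intervals, drawn where at least 20 UMIs of the pair were counted. CD8 T-like cells stood at 0.128 and 0.129 on the left, and Treg-like cells near 1.

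Smad7, which encodes an inhibitory SMAD, was higher in T and NK-like cells than in TAM-like, monocyte-like and DC-like cells. It stood at 341 and 367 CPM in CD4 conventional T-like cells, 305 and 303 CPM in CD8 T-like cells and 385 and 356 CPM in NK-like cells, against 83.5 and 88.2 CPM in TAM-like cells, 74.0 and 66.5 CPM in monocyte-like cells and 88.8 and 84.8 CPM in DC-like cells. Treg-like cells combined a high level, 458 and 408 CPM, with the Tgfbr1 level given above. Among TAM-like cells the Mmp12 Bnip3 subset stood apart, with 190.3 and 223 CPM of Smad7 against 47.6 to 84.7 CPM in the other subsets. In CD8 T-like cells, Smad7 stood at 381 and 355 CPM in effector-like cells, 379 and 314 CPM in stem-like cells, 260.3 and 283 CPM in exhausted-like cells and 272 and 263 CPM in cycling-like cells.

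Skil, whose product SnoN binds SMADs and represses their targets, was the most evenly spread of the members. Neutrophil-like cells had the highest level, 437 and 547 CPM from 45 and 68 UMIs, and Treg-like cells followed at 388 and 367 CPM. Gamma-delta T-like cells stood at 271 and 272 CPM, DC-like cells at 234 and 229.8 CPM, monocyte-like cells at 209 and 217 CPM, TAM-like cells at 209 and 212 CPM and CD4 conventional T-like cells at 203 and 245 CPM. CD8 T-like cells were lowest among the types with over 50 UMIs, at 136 and 129 CPM. Without cells above 5000 UMIs the highest Skil was in Treg-like cells of the MWA library and in DC-like cells of the other.

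The machinery around the members was read from 9 lists of 73 genes, and the genes named in this paragraph were chosen after their values were seen. Lrrc32, which encodes the surface anchor GARP, stood at 107 and 132 CPM in Treg-like cells and at 11.4 CPM or less elsewhere. Itgb8 stood at 99.7 and 90.2 CPM in Treg-like cells and at 17.7 CPM or less elsewhere. Its partner chain Itgav stood at 249 and 211 CPM in them against 71.6 and 74.4 CPM in TAM-like cells. Nrros, the anchor used by myeloid cells, stood at 87.0 and 88.4 CPM in TAM-like and 85.0 and 97.0 CPM in monocyte-like cells against 17.0 and 19.7 CPM in Treg-like cells. Among genes that TGF-β is known to induce, Itgae, which encodes the integrin chain CD103, stood at 366 and 375 CPM in Treg-like and 201 and 137 CPM in DC-like cells, but at 21.2 and 22.6 CPM in CD8 T-like cells. Pmepa1, a feedback inhibitor, was highest in TAM-like cells at 879 and 975 CPM, and the matrix protein gene Tgfbi in monocyte-like cells at 1439 and 1529 CPM. Maf stood at 839.9 and 1114 CPM in Treg-like cells.

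**Figure D4:**
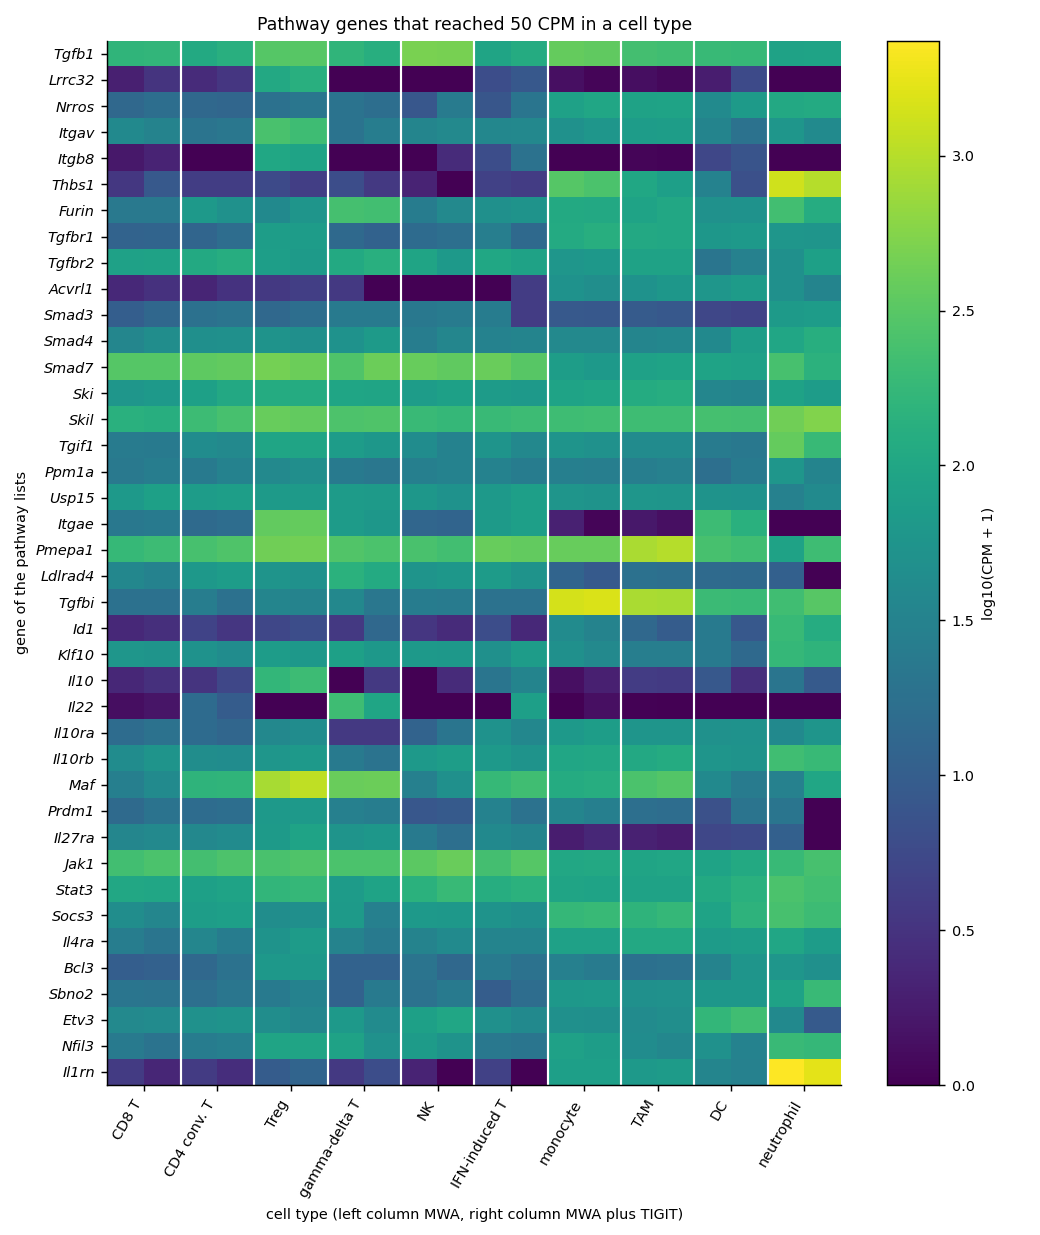
Level of the 40 pathway genes that reached 50 CPM in a cell type, drawn as log10(CPM + 1), with 2 columns per type (MWA left, MWA plus TIGIT right). Lrrc32 (107 and 132 CPM) and Itgb8 (99.7 and 90.2 CPM) are bright in the Treg-like columns and dark in the others.

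Between the libraries, most members differed little. A difference is given as the log2 ratio of CPM, MWA plus TIGIT over MWA, and a ratio of at least 1.5-fold either way was counted where both libraries together held at least 50 UMIs. Of 61 pairs of member and cell type, 3 passed that size, where 6.66% of 56685 pairs of any gene and type did. None of the 7 members read in CD8 T-like cells did, where 5.1% of all genes read did, and none of the 7 in CD4 conventional T-like cells (5.86% of all genes). The same was true of the 8 members in Treg-like cells (6.95%), the 5 in NK-like cells (9.54%), the 6 in interferon-induced T-like cells (10.4%), the 7 in monocyte-like cells (4.33%), the 8 in TAM-like cells (2.87%) and the only one in neutrophil-like cells (17.4%). The pairs past it were 1 of 4 members in gamma-delta T-like cells (9.17% of all genes), 1 of 7 in DC-like cells (11.6%) and the only one in B-like cells (74.5%). The median log2 ratio of all genes read was 0.14 in CD8 T-like, 0.10 in CD4 conventional T-like, 0.11 in interferon-induced T-like and -0.87 in B-like cells, and ratios in those types are to be read against it.

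Smad7 in gamma-delta T-like cells stood at 273 CPM (105 UMIs) and 415 CPM (160 UMIs), a log2 ratio of 0.60 (0.24 to 0.97). These cells were 1 cluster of 231 cells in both libraries together that was led by Il17a and the gamma-delta genes Trdv4 and Trdc but also held Cd4 at 92.2 CPM. At a finer resolution 174 cells led by Il17a and Il22, with Cd4 at 152 CPM, were named CD4 conventional T-like and 82 cells gamma-delta T-like, and the ratio in these 82 was 0.61. The 6 gamma-delta markers summed to 2599 and 1708 CPM in the cluster of 231, and the part of this make-up in the ratio was not tested. When cells were instead assigned by marker gates the ratio was -0.12. Tgfbr2 in DC-like cells stood at 19.4 and 29.2 CPM from 23 and 31 UMIs, with a ratio of 0.59 whose interval held 0 (-0.24 to 1.43). Smad7 in B-like cells stood at 252 and 99.4 CPM, a ratio of -1.34 (-2.64 to -0.24), from 44 UMIs in 82 cells and 8 UMIs in 11 cells. With predicted doublets kept, B-like cells numbered 82 and 63, and this pair was not past 1.5-fold. The same held with a further scaling of the libraries (TMM factors). Over the alternatives that read it, the ratio ran from -1.57 to -0.41.

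Intervals off 0 were found in 12 of the 61 pairs, next to 21.5% of all pairs of gene and type, so the members' share lay near that of all genes. By type they were 1 of 7 in CD8 T-like (30.1% of all genes), 2 of 7 in CD4 conventional T-like (15.6%), 2 of 8 in Treg-like (14.9%) and 1 of 4 in gamma-delta T-like cells (11.2%). They were 1 of 6 in interferon-induced T-like (14.9%), 1 of 7 in monocyte-like (18.3%), 3 of 8 in TAM-like (29.5%) and the only one in B-like cells (72.3%), and 0 in NK-like (12.4%), DC-like (16.8%) and neutrophil-like cells (22.8%). The 10 not yet given were smaller than 1.5-fold. In Treg-like cells Il10 was higher in the MWA plus TIGIT library, with a ratio of 0.25 (0.03 to 0.47), and Smad7 was lower, with a ratio of -0.17 (-0.31 to -0.03). The median of all genes read there was 0.07, above the lower bound of the Il10 interval. That interval is also too narrow, since the top 10% of Treg-like cells held 77.0% and 67.9% of the Il10 UMIs. In CD8 T-like cells Il10rb stood at 42.8 and 54.1 CPM, a ratio of 0.34 (0.15 to 0.54). In CD4 conventional T-like cells Tgfb1 had a ratio of 0.29 (0.07 to 0.50) and Skil one of 0.27 (0.11 to 0.43). Smad7 in interferon-induced T-like cells had a ratio of -0.37 (-0.65 to -0.09), and Tgfbr1 in monocyte-like cells one of 0.16 (0.02 to 0.30). In TAM-like cells the many UMIs gave narrow intervals around small ratios, -0.05 for Tgfb1, 0.08 for Smad7 and 0.11 for Il10rb. Without cells above 5000 UMIs the ratio of Il10rb was -0.10 and that of Tgfb1 -0.41, and with called doublets kept that of Smad7 was -0.04. TAM-like subsets also differed in the sign of the Smad7 ratio, at 0.24 (0.07 to 0.41) in Arg1 Slc7a2 cells, 0.23 (0.11 to 0.35) in Mmp12 Bnip3 cells and -0.16 (-0.31 to -0.02) in Selenop Mrc1 cells. Cycling and interferon-induced TAM-like cells had -0.14 and 0.19, with intervals that held 0. Other members also had subset ratios with intervals off 0, which are not listed. Whether any of these exceeds the difference between 2 mice of a group could not be tested.

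Over all kept cells Tgfb1 stood at 226 CPM in both libraries and Il10 at 8.09 and 8.34 CPM. Smad7 was lower in the MWA plus TIGIT library, at 147 against 165 CPM, with a log2 ratio of -0.16 (-0.21 to -0.12). The share of UMIs from CD8 T-like cells, where Smad7 is high, was 15.8% and 13.7%, and the share from TAM-like cells, where it is low, was 55.5% and 59.7%. Within types the log2 ratio of Smad7 was -0.01 in CD8 T-like cells, 0.08 in TAM-like cells, -0.17 in Treg-like cells, -0.15 in monocyte-like cells and -0.37 in interferon-induced T-like cells. The part of cell make-up in the ratio over all cells was not tested.

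**Figure D5:**
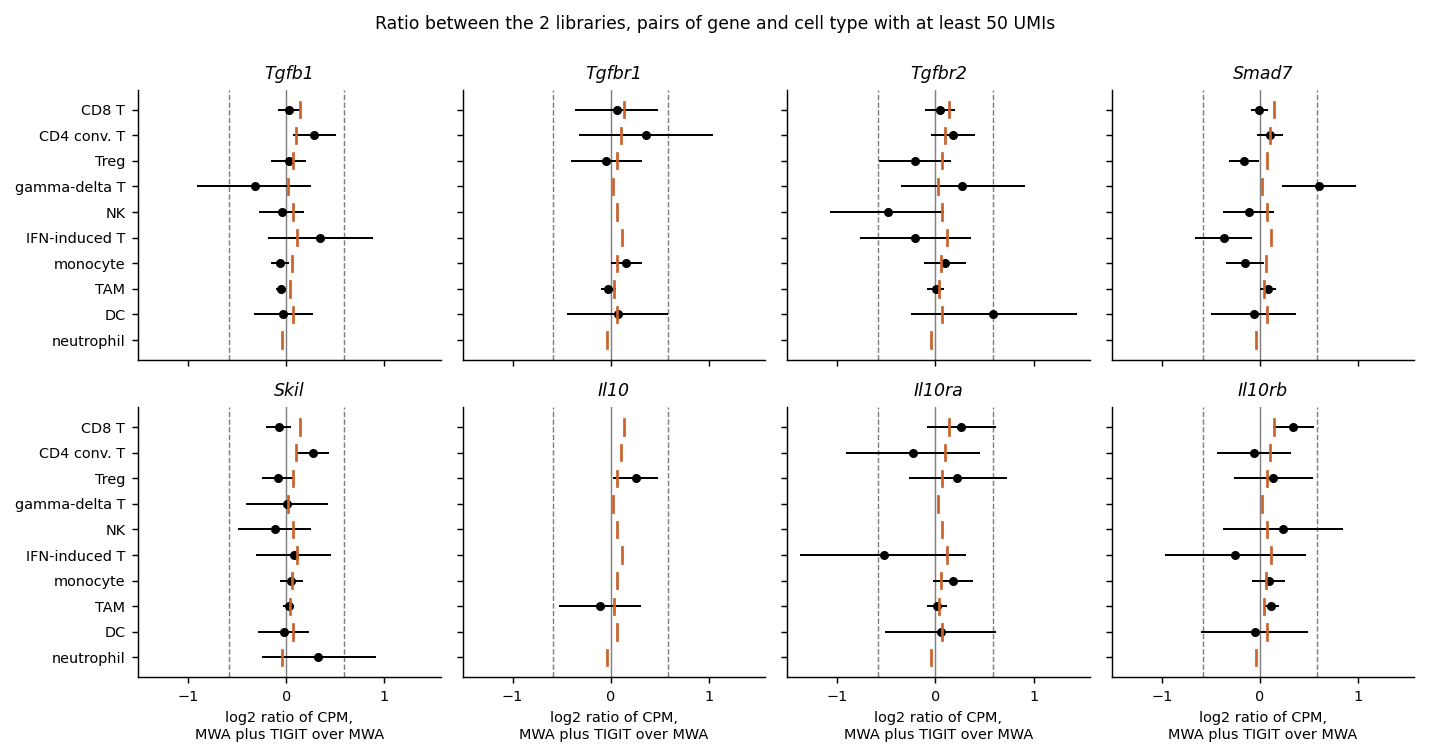
Log2 ratio of CPM, MWA plus TIGIT over MWA, for each member by cell type, with exact 95% intervals, for pairs with at least 50 UMIs (B-like cells left out). Dashed lines mark 1.5-fold, orange bars the median of all genes read in that type. The points of Smad7 in gamma-delta T-like cells and Tgfbr2 in DC-like cells, at 0.60 and 0.59, lie just past the line.

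The pathway lists gave 25 of 312 pairs of gene and type past 1.5-fold, near the 6.66% of all genes. In TAM-like cells 0 of 53 list genes were past it (2.87% of all genes), with a median log2 ratio of 0.00. In Treg-like cells 0 of 38 were (6.95% of all genes), with a median of 0.05. These medians lay near the 0.04 and 0.07 of all genes read there. Medians of some single lists, picked here after they were seen, lay further off. That of the 9 TGF-β response genes read in monocyte-like cells was -0.36, against 0.06 for all genes. Those of the 3 IL-10 induction genes read were 0.44 in CD8 T-like and 0.39 in Treg-like cells, against 0.14 and 0.07. In CD8 T-like cells 1 of 41 list genes was past 1.5-fold (5.1% of all genes). This was the latency activator Thbs1 (23 and 71 UMIs), and 55 of the 71 UMIs lay in a single cell. DC-like cells had 5 list genes higher and 3 lower of 30, where 11.6% of all genes, 345 higher and 179 lower, were past that size. Nrros was higher in the MWA plus TIGIT library (log2 ratio 0.74), as were Smad4, the common SMAD (0.92), and the IL-10 response genes Bcl3 (0.85) and Socs3 (0.73). Itgav (-0.84) and Nfil3 (-0.73), a transcription factor needed for conventional dendritic cells, were lower. Maf was also past 1.5-fold but its interval held 0, as did that of Tgfbr2. The DC-like cells were 93 cDC1-like and 73 mature DC-like cells in the MWA library but 42 and 79 in the MWA plus TIGIT library, and the 6 mature DC markers summed to 795 and 1571 CPM. The part of this make-up in the ratios was not tested.

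In the other types the list genes named here were chosen after their values were seen. In monocyte-like cells Id3, which encodes an inhibitor of helix-loop-helix factors, was lower in the MWA plus TIGIT library, at 24.2 and 11.4 CPM (log2 ratio -1.08), and Ltbp3, which encodes a latent TGF-β binding protein, was higher, at 4.80 and 8.12 CPM (0.76). In CD4 conventional T-like cells 2 of 38 were higher, the coreceptor Tgfbr3 (1.22) and the ubiquitin ligase gene Smurf2 (0.72). Of all 7035 genes read there, 5.86% were past that size, 315 higher and 97 lower. Tgfbi (-0.61) and Il22 (-0.71, with an interval that held 0) were lower there. Il22, an IL-10 family cytokine, came from few cells. In gamma-delta T-like cells it had 80 and 37 UMIs, of which 37 and 26 lay in a single cell, and in interferon-induced T-like cells all 54 UMIs of the MWA plus TIGIT library lay in 1 cell and the MWA library had 0. The isoform genes Tgfb2 and Tgfb3 were at or near 0, with Tgfb3 at 8.91 and 8.29 CPM in TAM-like cells.

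The genes whose levels were most like those of each member were ranked by Pearson r of log2(CPM + 1) over 42 points, 21 types and subsets in each of the 2 libraries, among 5454 genes. The points share libraries and cell lineages, so r is a description. Tgfbr1 was most like Picalm (0.92), the receptor tyrosine kinase gene Axl (0.91) and Csf1r (0.90), the receptor of macrophage growth factor. Smad7 was most like Tecpr1 (0.91), Gprin3 (0.90) and Tut4 (0.90). Il10 was most like Foxp3 (0.73), Itgb8 (0.70) and Spin1 (0.67), and Skil was most like Nfkbiz (0.81), Snx20 (0.79) and Plk3 (0.78). Il10ra was most like Tmem205 (0.87), Stx7 (0.83) and Prkcd (0.82), and Il10rb was most like the interferon receptor gene Ifnar2 (0.86), Amdhd2 (0.86) and Sh3bp2 (0.85). The nearest genes of Tgfb1 were Glud1 (0.77), Reep5 (0.75) and Slc25a3 (0.73), and those of Tgfbr2 were Azi2 (0.78), Prkacb (0.78) and Ewsr1 (0.74). Among the members themselves, Tgfbr1 and Il10ra had an r of 0.75 and Il10ra and Il10rb one of 0.72. Tgfbr1 and Smad7 had -0.65, and the chains Tgfbr1 and Tgfbr2 had -0.04.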

How the data were processed

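CD45+ cells of the left, non-ablated tumor were profiled as 1 library per group with 10x Genomics 3′ V3.1 chemistry. The authors aligned the reads to mm10 with Cell Ranger and deposited filtered matrices of UMI counts per gene and barcode. The submitters' processing notes name version 6.1.1, whereas the matrix headers name 4.0.0. The authors removed doublets and barcodes above 5000 UMIs in their own analysis, but the deposited counts held barcodes above that limit, and no UMI limit was applied here.

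Barcodes were kept if they had 200 or more genes and no more than 10% of UMIs from mitochondrial genes. Doublets were removed by comparison with simulated pairs (0.8% per 1000 barcodes). The libraries were integrated and clustered in Seurat 5.3.0 (3000 features, 40 components, resolution 0.1, then 1 for T and NK cells and 0.5 for myeloid cells), leaving out all genes of the pathway lists. NK-like, gamma-delta T-like, Treg-like, interferon-induced T-like, neutrophil-like and B-like clusters were named from at least 3 markers among their 10 leading genes, and DC-like and monocyte-like clusters from 2. Other myeloid clusters with at least 2000 CPM of C1qa were named TAM-like. Other T cell clusters were named CD8 T-like where Cd8a plus Cd8b1 was at least 10 times Cd4, and CD4 conventional T-like where Cd4 was at least 2 times Cd8a plus Cd8b1. Apart from neutrophil-like and B-like clusters, those of low depth were left unnamed, among them 444 cells with C1qa at 5028 CPM. So were other T cell clusters with 2 or more gamma-delta or plasmacytoid dendritic cell markers, among them 373 cells led by Klra7, Klra1 and Trdc. Also unnamed were clusters past the Cd4 rule with more exhausted CD8 than CD4 conventional T cell markers, such as 59 cells led by Penk. These thresholds were set after the clusters were seen. The members, lists and markers were chosen with earlier results of these data known.

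UMIs were summed per library and cell type, without length scaling because each UMI counts 1 molecule at the 3′ end. Levels are CPM with exact Poisson 95% intervals, shares have exact binomial intervals, and ratios have exact conditional binomial intervals (Python 3.11.15, scipy 1.17.1). PCR and cell-to-cell spread are not covered, and UMIs gathered in few cells make an interval too narrow. A count of 0 was set to 3 UMIs in ratios. Genes named by rule were the 8 members in every type, and list genes past 1.5-fold with an interval off 0 in CD8 T-like, Treg-like, TAM-like and DC-like cells, up to 3 per list and direction, and the 3 genes most like each member. A list gene is not reported here. The ratio step was run on simulated Poisson counts for all types but B-like cells. Those counts follow the model that the intervals assume, so that run says nothing about UMIs gathered in few cells. Depth per library was 66152465 UMIs (MWA) and 78751205 UMIs (MWA plus TIGIT). Alternatives were limits on UMIs, mitochondrial share and genes, doublets kept, marker gates, another resolution, TMM factors (edgeR 4.0.16), thinning to 2000 UMIs and no low-count filter. Leaving out shared barcodes and counting interferon-induced T-like cells as CD8 T-like cells were added after seeing the data.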

Additional observations from a re-analysis of the deposited data

How the results depend on the processing

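With 1 library per group, counting error was the only error that could be given, and which cells enter a type was the choice that moved values most. Leaving out cells above 5000 UMIs put 87.3% and 88.1% of Il10 UMIs in Treg-like cells and 11.5% and 6.905% of Tgfb1 UMIs in TAM-like cells (MWA, then MWA plus TIGIT). With called doublets kept, these shares were 60.8% and 60.4% for Il10 and 63.2% and 65.55% for Tgfb1, and 1 of 62 member ratios was past 1.5-fold. With marker gates they were 43.0% and 44.8% for Il10 and 60.6% for Tgfb1 in the MWA plus TIGIT library. Under those gates, the highest type was unchanged in 10 of 16 member and library pairs, 1 of 51 member ratios and 15 of 250 list ratios were past 1.5-fold, and Smad7 in gamma-delta T-like cells reversed to -0.12. Subclusters at a resolution of 1.5 and 1 gave 61.65% and 65.4% for Tgfb1. Without cells above 5000 UMIs the member ratios past 1.5-fold were others, Smad7 in monocyte-like cells (-0.70) and Skil in DC-like cells (1.00). The highest type then changed for Skil in both libraries. It also changed for Tgfbr1 in the MWA library and for Smad7 and Il10ra in the MWA plus TIGIT library. Without the low-count filter, where a gene needed only a UMI in each library, 138 of 534 list ratios were past 1.5-fold against 25 of 312. The share of all genes past that size was not read under the alternatives, so these counts have no background beside them. Of the single member ratios under the alternatives, 490 stayed within their counting interval and 27 moved beyond it, and of the ratios past 1.5-fold 1 changed sign. The Il10 ratio in Treg-like cells ran from 0.19 to 0.26 and kept its sign in 9 of 9 settings, while Smad7 and Il10rb in TAM-like cells, which were under that size, kept theirs in 8 of 9 and stood at -0.04 and -0.10 in the other. No paired analysis was possible because each group has 1 library and the labels give no replicate numbers.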
